A study of Rattus norvegicus with 32 samples.

Results

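The synaptic vesicle and exocytosis genes of the rat nucleus accumbens, the ventral part of the striatum, were examined 1 h after methamphetamine (METH), a psychostimulant that releases dopamine. Probes were taken by gene symbol: synaptotagmins (Syt), syntaxins (Stx), their binding proteins (Stxbp), Vamp and Snap genes, Sv2 genes, synapsins (Syn1 to Syn3), synaptophysin (Syp), synaptogyrins (Syngr), complexins (Cplx), Rab3, Rims and Unc13 genes, Nsf and the Nap adaptors. Of 22523 probes on the Illumina beadchip, 86 carried such a symbol, and 60 of these, for 58 genes, were above background (detection p under 0.05) on at least 4 of 9 arrays. The first group was male Sprague-Dawley rats given a single METH injection (20 mg/kg) and killed 1 h later (5 arrays). The other was rats of the same strain and sex given saline and killed at 1 h (4 arrays). Total RNA came from the dissected accumbens. The labels state 5 rats per group, and whether each array held 1 rat is not stated, so a p-value here reflects only how far the arrays of a group lie apart, which may be technical. The other 23 arrays of the series, from later times, were not used here, since their values do not pair with the probe names.

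Synaptic vesicles are filled with transmitter, docked at the active zone, primed, and fused with the membrane when calcium enters the terminal. Fusion is driven by SNARE proteins, with synaptotagmins sensing calcium and complexins and syntaxin-binding proteins steering assembly. Afterwards the ATPase NSF and its SNAP adaptors take the SNARE complexes apart so that they can be used again. METH itself acts on monoamine transporters of the plasma membrane and of the vesicle.

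All 60 probes were carried by the same 9 arrays, which differed moderately in brightness. The mean deposited intensity per array was 187.9 to 231.4 on METH arrays and 164.3 to 187.8 on saline arrays, and 41.9% to 47.3% and 41.5% to 44.5% of probes were above background. The number of arrays limits the precision. The tissue was checked with marker genes: of 17 genes of striatal projection neurons with a named probe, 16 were above background on all 9 arrays, and of 10 genes of cortical glutamatergic neurons, 3 were. Arrays lay on 2 slides, with 2 METH and 2 saline arrays on slide 1 and 3 METH and 2 saline arrays on slide 2.

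No synaptic vesicle or exocytosis probe passed the test between METH and saline at 1 h. Among members above background in both groups, Stx1a, a plasma membrane SNARE, and Rims1, a scaffold of the active zone, lay highest with METH, and Rab34, Rab3d and Syn2 lay lowest. Of 60 probes, 0 passed 0.05 in limma once p was adjusted by Benjamini-Hochberg over 9987 probes (smallest adjusted p among the members 0.156), where 52 of all probes did, which is 0.521%. At an unadjusted p under 0.05 there were 12 members (20%), against 1097 of all probes, which is 11%. Of the 12, 9 were higher with METH, where 5.33% of all probes were, and 3 were lower, where 5.66% of all were. The 9 include Cplx3 and Unc13d, which were above background on no saline array and entered through METH arrays alone; of the other 58 members, 7 were higher and 3 lower. The METH and saline arrays did not overlap for 4 members (6.67%), against 4.26% of all probes. The median log2 fold change was 0.078 over the members and -0.023 over all probes. In all, 36 members lay above 0 (60%) and 23 below, and 45.7% of all probes lay above 0. Of 15 probes for markers of neurons in general, 11 lay above 0 and 4 below, with a median log2 fold change of 0.15. The lean above 0 was therefore not particular to the members. 1 member, Sv2b, was fixed at 0 by the normalization. For the other 59 members, the 95% interval of the log2 fold change reached a median of 0.37 to either side. In whole tissue, fewer cells of a type and less RNA per cell cannot be told apart. The interval excluded a 2-fold difference in both directions for 53 of the 59, and a 1.5-fold difference for 27. These are 89.8% and 45.8% of the members. Over all probes it did so for 9488 of 9986 and for 67.9%. These counts depend on where an interval lies as well as on its width. Over all probes the interval reached a median of 0.34 to either side.

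**Figure D1:**
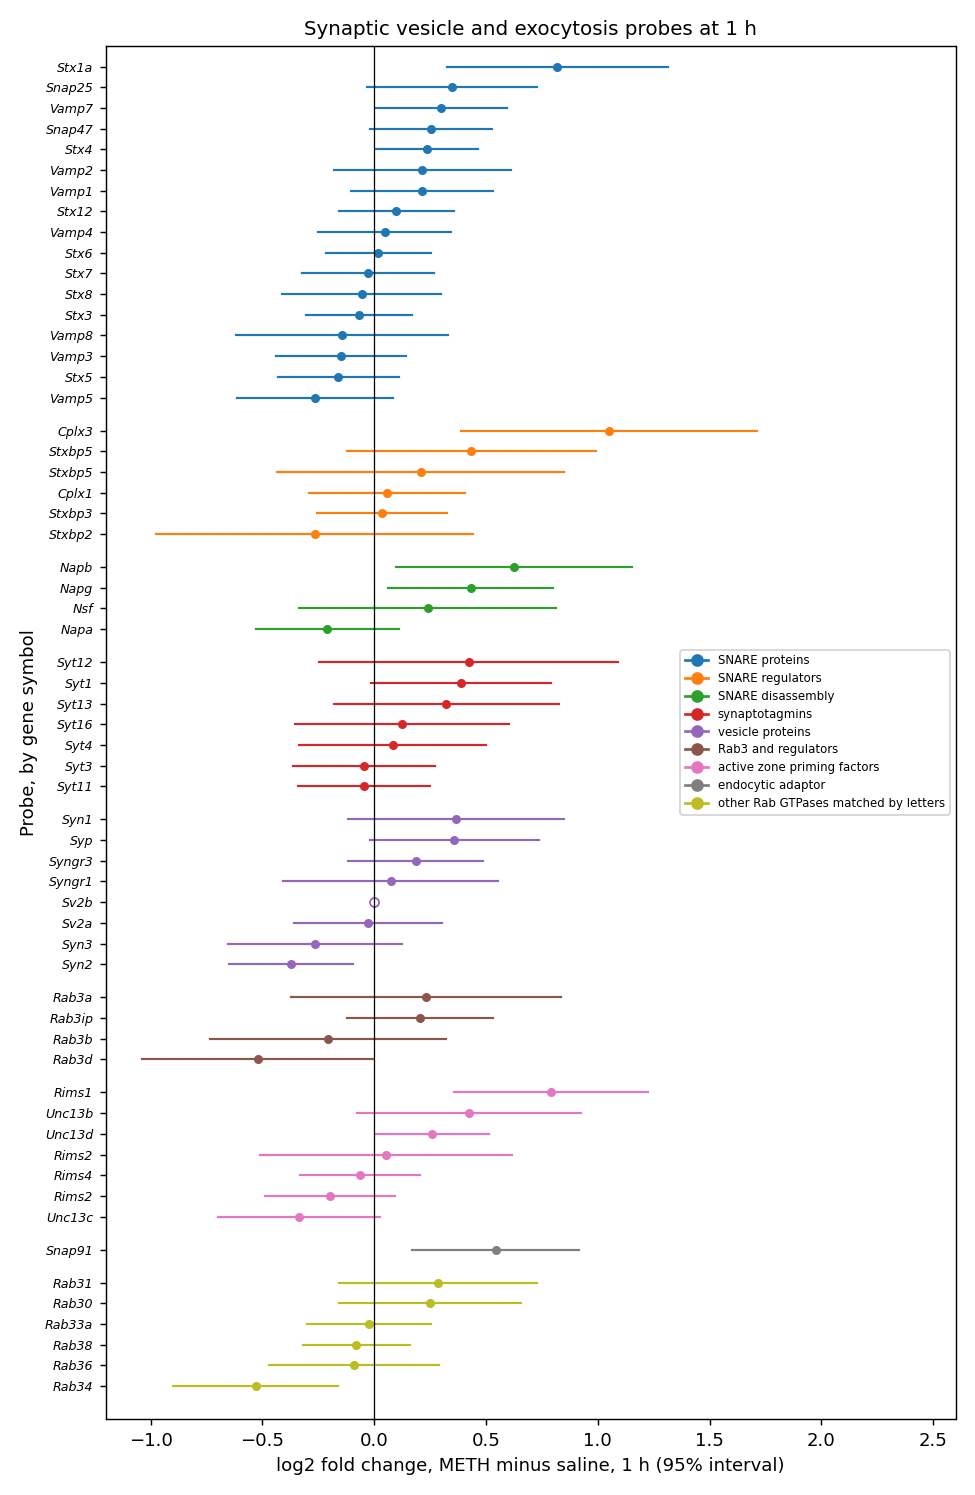
Log2 fold change of METH over saline at 1 h for each of the 60 member probes (x axis, points), with its 95% interval (lines), grouped and coloured by role down the page. Intervals of Rims1 and Stx1a lie above 0 and those of Rab34 and Syn2 below 0, but none passed after adjustment over 9987 probes; the open point is Sv2b, set equal on all arrays by the normalization, and Cplx3 and Unc13d were above background on no saline array, so their points are not exact.

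Among the active zone priming factors, the scaffolds and Munc13 proteins that make docked vesicles ready to fuse, 7 probes of 6 genes were measured. Of the 7, 0 passed, which is near the 0.521% of all probes that did. Rims1 organises calcium channels and vesicles at the active zone, and it had the smallest p of all members. Its normalized log2 intensity was 9.08, 8.31, 9.36, 8.94 and 8.60 on METH arrays 1 to 5, against 7.93, 8.25, 7.79 and 8.29 on saline arrays 1 to 4. Every METH array lay above every saline array, METH array 2 by a narrow margin. The log2 fold change was 0.79 ± 0.20 (SE, 95% interval 0.36 to 1.23, limma adjusted p = 0.156, n = 5 and 4), a fold of 1.73. It was 0.59 within slide 1 and 0.94 within slide 2.

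The other priming factors did not share one direction. Rims2, a paralog of Rims1, had 3 probes, of which 2 passed the detection filter, and their log2 fold changes were -0.20 ± 0.13 and 0.052 ± 0.26 SE. Rims4, a short family member, had -0.063 ± 0.12 SE. Among the Munc13 genes, Unc13b had 0.42 ± 0.23 SE and Unc13c -0.34 ± 0.17 SE. Unc13d, known for its role in granule release by immune cells, passed the detection filter through METH arrays alone, with 4 of 5 METH arrays and 0 of 4 saline arrays above background. Its values were 5.50, 5.21, 5.31, 5.38 and 5.44 on METH arrays and 5.08, 5.29, 5.16 and 4.90 on saline arrays. The METH mean was at least 1.05-fold the saline mean, where each saline array enters at its own detection limit unless the probe was brighter (limma adjusted p = 0.449). Such a bound does not include the spread between arrays. The probes of Unc13a, the main Munc13 isoform of forebrain synapses, and of Rims3 were above background on 0 of 9 arrays.

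Of the SNARE proteins, 17 probes of 17 genes were measured, 10 of them above 0 and 7 below, with a median log2 fold change of 0.047. Stx1a pairs with Snap25 and Vamp2 in the complex that fuses synaptic vesicles. Its values were 6.15, 5.23, 6.16, 5.81 and 6.56 on METH arrays, against 4.98, 5.10, 5.08 and 5.49 on saline arrays. METH arrays 1, 3, 4 and 5 lay above all saline arrays, and METH array 2 lay within the saline range. It was above background on 4 of 5 METH arrays and 1 of 4 saline arrays, so the size of its log2 fold change, 0.82 ± 0.23 (SE, 95% interval 0.33 to 1.31, limma adjusted p = 0.192), is uncertain. Within slide 1 it was 0.63 and within slide 2 it was 0.91.

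Snap25, the other plasma membrane SNARE of the synapse, had values of 11.65, 11.37, 12.05, 11.66 and 12.31 on METH arrays and 11.51, 11.49, 11.28 and 11.55 on saline arrays. METH arrays 3 and 5 stood highest and the groups overlapped. The log2 fold change was 0.35 ± 0.18 (SE, 95% interval -0.032 to 0.73, limma adjusted p = 0.499). It was 0.0088 within slide 1 and 0.59 within slide 2. The vesicle SNAREs Vamp1 and Vamp2 had 0.21 ± 0.15 and 0.22 ± 0.18 SE. Vamp1 was 6.43, 7.05, 6.89, 6.92 and 6.58 on METH arrays and 6.57, 6.57, 6.56 and 6.54 on saline arrays. Its saline arrays were nearly equal (SD 0.016), and METH array 1 lay below all of them. Vamp2 was 7.56, 6.82, 7.63, 7.26 and 7.27 on METH arrays and 7.06, 7.35, 7.20 and 6.76 on saline arrays, which overlapped widely.

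Stx4, a plasma membrane syntaxin that acts in many cell types and at postsynaptic sites, differed little but without overlap. It had 8.57, 8.53, 8.36, 8.38 and 8.55 on METH arrays, against 8.18, 8.27, 8.27 and 8.23 on saline arrays. The spread between arrays was among the smallest of all members, and the log2 fold change was 0.24 ± 0.11 (SE, 95% interval 0.0065 to 0.47, limma adjusted p = 0.443). Vamp7, a vesicle SNARE of late endosomes and of a resting vesicle pool, had 8.61, 8.10, 8.22, 8.31 and 8.31 on METH arrays and 8.26, 7.85, 8.01 and 7.93 on saline arrays (log2 fold change 0.30 ± 0.14 SE, limma adjusted p = 0.449). Only METH arrays 1, 4 and 5 lay above every saline array. Snap47, a relative of Snap25, had a log2 fold change of 0.25 ± 0.13 SE. For the other syntaxins and Vamps, most of them known from endosomes, Golgi or lysosomes, the log2 fold changes were 0.10 for Stx12, 0.047 for Vamp4, 0.019 for Stx6, -0.026 for Stx7, -0.055 for Stx8, -0.14 for Vamp8, -0.15 for Vamp3 and -0.16 for Stx5. Stx3 (-0.067) and Vamp5 (-0.26) were above background on 4 of 9 arrays each.

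The SNARE regulators, complexins and Stxbp genes, gave 6 probes of 5 genes, with 0 past the threshold, where 0.521% of all probes passed. Cplx3, a complexin known in mouse from retinal ribbon synapses and from deep cortical neurons, had 5.91, 4.65, 6.72, 5.99 and 6.10 on METH arrays, against 4.77, 4.80, 4.80 and 4.92 on saline arrays. METH arrays 1, 3, 4 and 5 stood far above saline, while METH array 2 lay below every saline array. It passed the detection filter through METH arrays alone (4 of 5, with 0 of 4 saline arrays). The METH mean was at least 1.5-fold the saline mean (limma adjusted p = 0.206). Cplx1, the complexin typical of fast forebrain and hindbrain synapses, had 6.82, 6.93, 7.12, 6.69 and 6.31 on METH arrays and 6.65, 6.78, 6.76 and 6.67 on saline arrays. These overlapped, with a log2 fold change of 0.058 ± 0.16 SE. Stxbp5 (tomosyn), which holds SNAREs in an inactive complex, had 3 probes. The 2 that passed the filter had 0.43 ± 0.26 and 0.21 ± 0.295 SE, and the remaining one was not above background on any array. Stxbp3, a syntaxin-binding protein of many tissues, had 0.036 ± 0.13 SE and Stxbp2, its relative, -0.27 ± 0.33 SE, the widest interval of the 60.

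**Figure D2:**
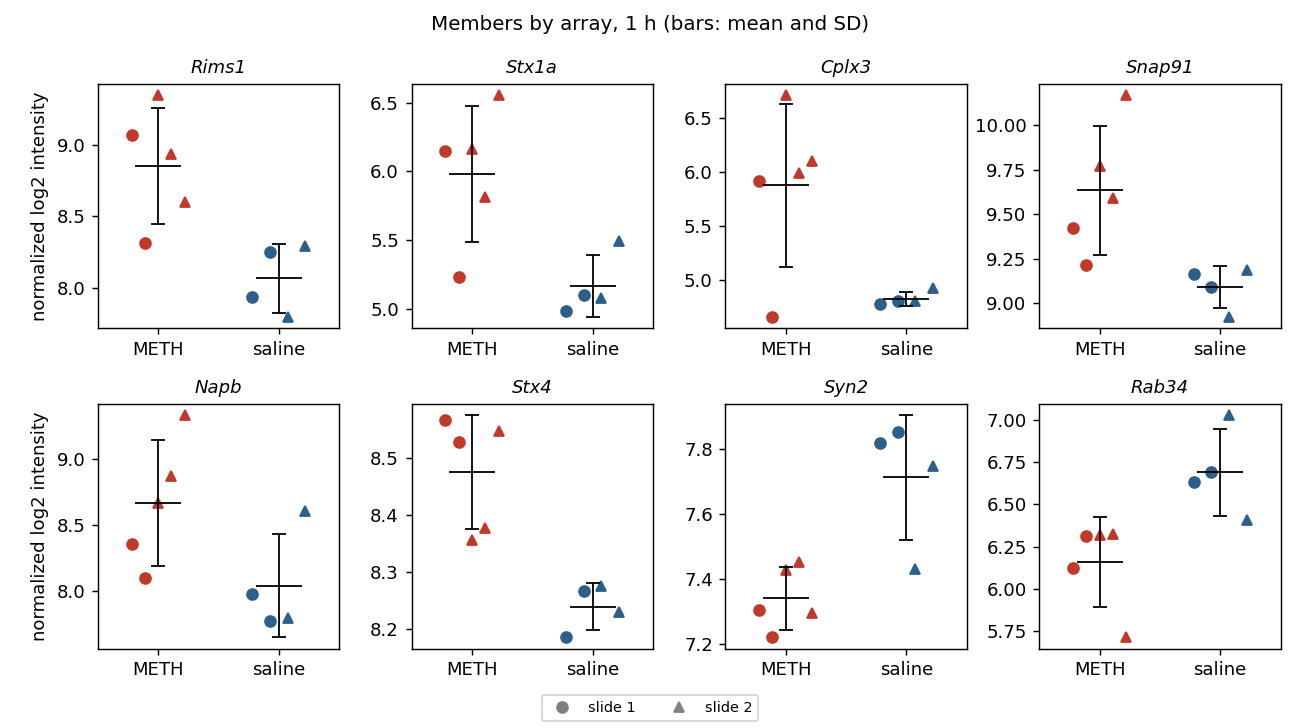
Normalized log2 intensity (y axis) of 8 members on each METH array (left, red) and saline array (right, blue) at 1 h, with circles for slide 1, triangles for slide 2, and bars for the mean and SD (n = 5 and 4). Rims1, Snap91 and Stx4 lie higher and Rab34 lower on every METH array than on every saline array; 1 METH array, number 2, sits within or below the saline range for Stx1a and Cplx3.

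The disassembly machinery is Nsf, the ATPase, with its adaptors Napa, Napb and Napg (the SNAP proteins alpha, beta and gamma). Napb, the brain form, had 8.35, 8.10, 8.67, 8.87 and 9.33 on METH arrays, against 7.97, 7.77, 7.80 and 8.61 on saline arrays. Saline array 4 stood high and lay above METH arrays 1 and 2. The log2 fold change was 0.63 ± 0.24 (SE, 95% interval 0.098 to 1.15, limma adjusted p = 0.369), with 0.35 within slide 1 and 0.77 within slide 2. Napg had 7.63, 8.03, 7.88, 7.76 and 8.36 on METH arrays and 7.62, 7.20, 7.41 and 7.78 on saline arrays (log2 fold change 0.43 ± 0.17 SE, limma adjusted p = 0.371). It stayed close in both slides, at 0.41 in each. Napa, the form found in all tissues, lay the other way at -0.21 ± 0.15 SE. Nsf had 10.57, 10.20, 11.13, 11.20 and 11.45 on METH arrays and 10.94, 10.39, 10.18 and 11.16 on saline arrays. It varied by more than 0.9 within each group, and its log2 fold change of 0.24 ± 0.26 SE was -0.28 within slide 1 and 0.58 within slide 2.

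Of the synaptotagmins, 7 genes were measured and 0 passed (limma), also at an unadjusted p under 0.05, which 11% of all probes reached; with 7 genes, 0 is near that share. Syt1, the calcium sensor of fast release in forebrain, had 12.27, 11.99, 12.60, 12.44 and 13.05 on METH arrays, against 12.08, 12.17, 11.90 and 12.18 on saline arrays. METH array 2 lay within the saline range and METH array 5 far above it. The log2 fold change was 0.39 ± 0.19 (SE, 95% interval -0.015 to 0.79, limma adjusted p = 0.473), with 0.0087 within slide 1 and 0.68 within slide 2. Syt12, a vesicle protein that lacks calcium binding, had 0.42 ± 0.31 SE, and its METH array 2, at 5.47, lay far below the other METH arrays (6.95 to 7.10) and below saline (5.89 to 6.70). Syt13 had 0.32, Syt16 0.13, Syt4, a synaptotagmin of dense-core vesicles known to respond to neuronal activity, 0.083, and Syt3 and Syt11 -0.045 each. Another 8 synaptotagmin genes with a named probe (Syt2, Syt5, Syt6, Syt7, Syt8, Syt9, Syt10 and Syt15) did not pass the detection filter. Of these, Syt7, a slow calcium sensor, was nearest, on 3 of 9 arrays.

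Among the proteins of the vesicle itself, 8 genes were measured. Syp, a vesicle membrane protein widely used as a marker of synapses, had 11.38, 11.24, 12.05, 11.51 and 11.23 on METH arrays, against 10.91, 11.40, 11.17 and 11.02 on saline arrays. METH array 3 stood apart and the groups overlapped (log2 fold change 0.36 ± 0.17 SE, 95% interval -0.020 to 0.74, limma adjusted p = 0.483). The synapsins, which tether vesicles in the reserve pool, went in different directions. Syn1 had 5.82, 5.64, 6.88, 6.30 and 6.16 on METH arrays and 5.93, 5.52, 5.98 and 5.75 on saline arrays, with a log2 fold change of 0.37 ± 0.22 SE. Syn2 had 7.31, 7.22, 7.43, 7.45 and 7.30 on METH arrays and 7.82, 7.85, 7.43 and 7.75 on saline arrays. Its METH arrays lay together, below 3 of the 4 saline arrays, and its log2 fold change was -0.37 ± 0.13 (SE, 95% interval -0.65 to -0.095, limma adjusted p = 0.289). Syn3 had -0.27 ± 0.18 SE. The synaptogyrins Syngr3 and Syngr1 had 0.19 ± 0.14 and 0.074 ± 0.22 SE.

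Of the Sv2 glycoproteins, which modulate release and bind synaptotagmin, Sv2a had 5.52, 5.94, 6.00, 5.68 and 5.54 on METH arrays and 5.45, 5.81, 5.81 and 5.98 on saline arrays (log2 fold change -0.029 ± 0.15 SE). The groups covered the same range. The Sv2b probe was the brightest of 22523 on all 9 arrays, so quantile normalization gave it the same value everywhere and its difference of 0 is not a measurement. Its deposited intensity was 19020, 18060, 22091, 17831 and 17950 on METH arrays, against 20956, 18191, 24734 and 20939 on saline arrays. These overlapped, and without scaling its log2 fold change was -0.16, where the median of all probes was 0.23 (limma adjusted p = 0.614). The Sv2c probe was above background on 0 of 9 arrays.

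Rab3 GTPases mark vesicles for docking. Rab3a, the main form at synapses, had 8.46, 8.65, 9.25, 8.59 and 7.43 on METH arrays, against 8.25, 7.98, 8.28 and 8.45 on saline arrays. METH array 5 lay below every saline array and the other METH arrays above every one, and the log2 fold change was 0.23 ± 0.28 SE. Rab3d, known best from secretory granules of exocrine cells, had 7.26, 6.96, 7.84, 7.35 and 8.02 on METH arrays and 8.12, 7.40, 8.16 and 8.34 on saline arrays. The groups overlapped through saline array 2, with a fitted difference of -0.52 ± 0.24 (log2, SE, 95% interval -1.04 to -0.0031, limma adjusted p = 0.452). Rab3b had -0.21 ± 0.24 SE and Rab3ip, an activator of Rab GTPases, 0.20 ± 0.15 SE. Rab3c and Rab3il1 did not pass the detection filter.

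Snap91 and some Rab genes are matched by the letters of their symbols and belong to other steps. Snap91 (AP180) is a clathrin adaptor that retrieves vesicle membrane after fusion. It had 9.42, 9.22, 9.77, 9.59 and 10.17 on METH arrays, against 9.16, 9.09, 8.92 and 9.19 on saline arrays, without overlap. The log2 fold change was 0.54 ± 0.17 (SE, 95% interval 0.17 to 0.92, limma adjusted p = 0.250), with 0.19 within slide 1 and 0.80 within slide 2. Rab34, a Rab of Golgi and lysosome positioning, had 6.12, 6.31, 6.32, 6.33 and 5.71 on METH arrays and 6.63, 6.69, 7.03 and 6.41 on saline arrays. All METH arrays lay below all saline arrays, and the log2 fold change was -0.53 ± 0.17 (SE, 95% interval -0.90 to -0.16, limma adjusted p = 0.260). The other 5, Rab31, Rab30, Rab33a, Rab38 and Rab36, had log2 fold changes from -0.091 to 0.29. Without these 6 Rab genes, the member median was 0.092, and 0 of 54 probes passed (limma, 11 at an unadjusted p under 0.05, against 0.521% and 11% of all probes).

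The promoter sequences of 5 members are given to show what lies upstream of the genes at both ends of the list: Rims1, Stx1a and Cplx3 from the higher end and Rab34 and Syn2 from the lower end. They are the 5 members with the smallest p that have an entry in the RefSeq promoter table (GRCr8). Each runs 5′ to 3′ on the gene's strand, from 250 bases before the annotated start to 50 after. Capitals mark matches, on either strand, to the CRE (TGACGTCA), AP-1 (TGANTCA), EGR (GCGNGGGCG) or SP1 (GGGCGG) motif.
Rims1 (chr9:32692723-32693022, minus strand): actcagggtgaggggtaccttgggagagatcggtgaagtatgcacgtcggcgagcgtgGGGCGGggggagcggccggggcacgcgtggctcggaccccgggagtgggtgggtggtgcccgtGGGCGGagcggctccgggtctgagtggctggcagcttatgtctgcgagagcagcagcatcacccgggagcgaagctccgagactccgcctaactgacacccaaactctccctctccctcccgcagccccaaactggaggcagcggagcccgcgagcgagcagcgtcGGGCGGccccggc
Stx1a (chr12:27306422-27306721, minus strand): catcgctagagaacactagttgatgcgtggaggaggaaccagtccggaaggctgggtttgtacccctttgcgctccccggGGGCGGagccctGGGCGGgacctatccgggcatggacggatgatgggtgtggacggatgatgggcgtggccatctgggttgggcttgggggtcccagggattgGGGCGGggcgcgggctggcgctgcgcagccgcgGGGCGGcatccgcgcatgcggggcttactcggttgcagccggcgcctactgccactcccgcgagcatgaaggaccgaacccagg
Cplx3 (chr8:66906151-66906450, minus strand): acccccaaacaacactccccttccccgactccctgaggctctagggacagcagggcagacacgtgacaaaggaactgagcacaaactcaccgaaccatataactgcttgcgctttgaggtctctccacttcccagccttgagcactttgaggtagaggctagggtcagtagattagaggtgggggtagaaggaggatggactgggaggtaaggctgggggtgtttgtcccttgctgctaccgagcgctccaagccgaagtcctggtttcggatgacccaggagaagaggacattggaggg
Rab34 (chr10:63581292-63581591, plus strand): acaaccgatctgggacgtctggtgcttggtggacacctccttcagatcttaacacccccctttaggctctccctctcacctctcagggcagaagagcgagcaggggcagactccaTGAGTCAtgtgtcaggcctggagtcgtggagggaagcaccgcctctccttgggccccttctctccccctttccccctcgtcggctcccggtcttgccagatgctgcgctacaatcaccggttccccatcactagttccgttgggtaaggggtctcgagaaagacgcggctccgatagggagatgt
Syn2 (chr4:149858669-149858968, plus strand): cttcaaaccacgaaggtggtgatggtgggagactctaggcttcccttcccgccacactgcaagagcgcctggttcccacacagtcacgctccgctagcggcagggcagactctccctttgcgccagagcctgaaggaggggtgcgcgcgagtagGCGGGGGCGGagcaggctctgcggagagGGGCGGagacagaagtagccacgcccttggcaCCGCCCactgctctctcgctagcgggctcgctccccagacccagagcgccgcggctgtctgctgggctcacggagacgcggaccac

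The capitals are SP1 matches in Rims1 (3) and Stx1a (4), an AP-1 match in Rab34 from -135 to -129, and in Syn2 an EGR match from -96 to -88 with 3 SP1 matches, 1 of which overlaps it. The Cplx3 window held none of the 4 motifs. Of 44 member genes with an entry, 32 promoters (72.7%) held SP1, against 33.1% of all 33469 promoters in the table, which include many predicted loci. An EGR match was in 10 (22.7%, against 4.98%), a CRE match in 3 (6.82%, against 1.83%) and an AP-1 match in 2 (4.55%, against 7.33%). The CRE matches were in Syn1, Napa and Vamp1, and the AP-1 matches in Rab34 and Syp. These matches are of letters only, and SP1 and EGR motifs overlap in sequence. The members count 1 promoter per gene, while the table counts every entry, whether or not the gene was detected here. The shares therefore do not set the members apart from other detected genes.

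Some members differed from array to array together with markers of tissue composition, and others did not. The 7 measured markers of cortical glutamatergic neurons, of 15 written, differed by a median of 0.66 on the log2 scale, with 6 above 0 and 0 past the threshold (limma, adjusted over all probes). Their median difference from the saline mean was 0.64, -0.20, 0.90, 0.90 and 1.54 on METH arrays 1 to 5, and -0.093, -0.072, -0.27 and 0.41 on saline arrays. The 17 measured striatal genes, with 18 probes, differed by a median of -0.43, with 17 probes below 0 and 0 past the threshold. Over all probes 0.521% passed and 45.7% lay above 0. The striatal median was -0.22, -0.19, -0.56, -0.36 and -0.84 on METH arrays and 0.12, -0.076, 0.064 and -0.18 on saline arrays. The summed normalized intensity of the cortical markers ranged from 2541 to 3545 on METH arrays and from 2878 to 3561 on saline arrays. That of the striatal genes ranged from 13149 to 23655 and from 23813 to 27955. Lamp5, a bright cortical marker, was the 1 below 0. Slc17a7, the vesicular glutamate transporter of cortical neurons, was above background on 4 of 5 METH arrays and 2 of 4 saline arrays, and no cortical marker with a named probe was at background on every array. The member median over all 60 probes was 0.038, -0.012, 0.18, 0.10 and 0.053 on METH arrays and lay between -0.015 and 0.015 on saline arrays.

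For some members the order of the arrays was like that of the cortical markers. Relative to the saline mean, Napb was at 0.31, 0.061, 0.63, 0.83 and 1.29 on METH arrays and at -0.064, -0.26, -0.24 and 0.57 on saline arrays. Nsf was at -0.099, -0.47, 0.46, 0.53 and 0.78 on METH arrays and at 0.27, -0.28, -0.49 and 0.49 on saline arrays. For both, METH array 5 was highest, METH array 2 lowest of the METH arrays, and saline array 4 highest of the saline arrays, as it was for the cortical markers. Rab3a and Cplx1 went the other way on METH array 5, where they were lowest of all arrays (-0.82 and -0.41). The cortical median was itself higher on most METH arrays than on every saline array. A fit with it as a covariate therefore cannot separate the markers from METH. With the cortical median of each array as a covariate, the log2 fold change was -0.034 for Snap25, -0.043 for Syt1, 0.023 for Napb, -0.40 for Nsf, 0.26 for Stx1a and 0.15 for Snap91. It was 0.56 for Rims1, -0.26 for Rab34 and -0.98 for Rab3d, and 0 members passed in that fit (limma, smallest adjusted p 0.081), where 0.841% of all probes did. At an unadjusted p under 0.05 there were 7 members, and 10.6% of all probes, a share near that of the members. Other members lay further from 0 with the covariate. Rab30 was at 0.66, Rab3a at 0.55, Vamp1 at 0.36, Cplx1 at 0.27 and Syn2 at -0.45. Without the covariate they were at 0.25, 0.23, 0.21, 0.058 and -0.37. The part of tissue composition in these differences was not tested.

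**Figure D3:**
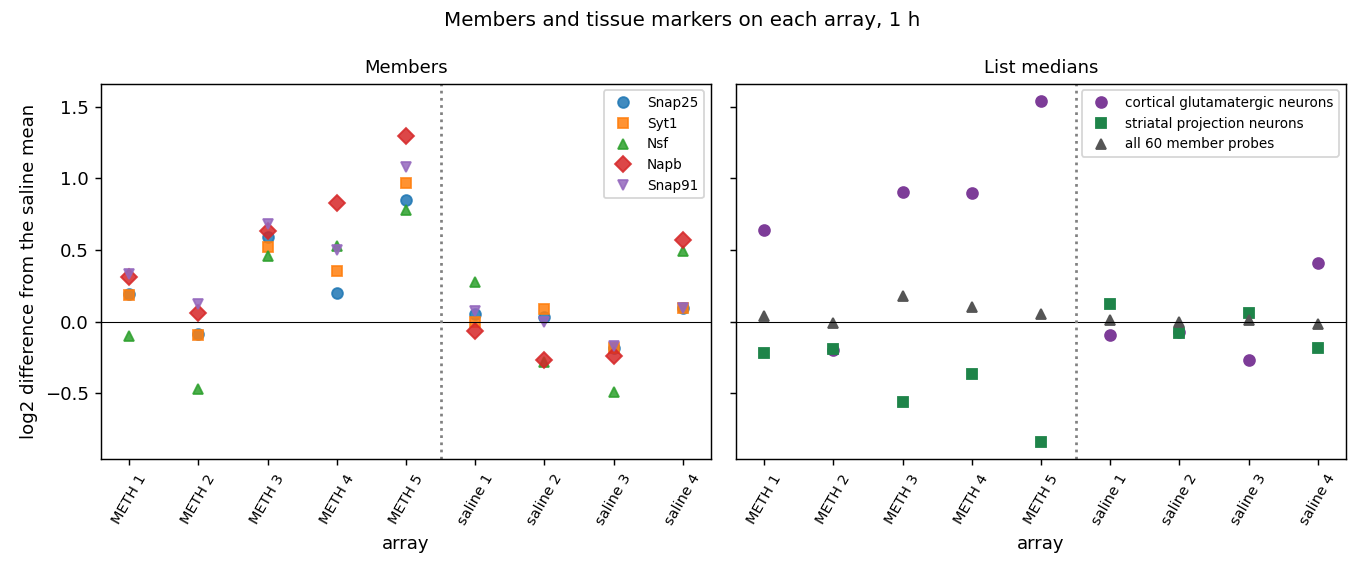
Difference from the saline mean on the log2 scale (y axis) on each of the 5 METH and 4 saline arrays (x axis) for 5 members, picked after their values were seen (left), and for the medians of the cortical markers, the striatal genes and all 60 member probes (right). METH array 5 is highest for the cortical markers (1.54) and for all 5 members shown, while the median of all 60 probes stays within 0.2 of 0. Rab3a and Cplx1, not shown, were lowest on METH array 5.

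Some members had opposite directions on the 2 slides. Of the 59 members other than Sv2b, 24 lay above 0 in both slides, 15 below 0 in both and 20 on opposite sides. The same shares over all probes are not given, so these counts do not set the members apart. Syt12 was at -0.24 within slide 1 and 0.93 within slide 2, and Syngr1 at -0.48 and 0.52. Whether the effect differed between slides was not tested.

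**Figure D4:**
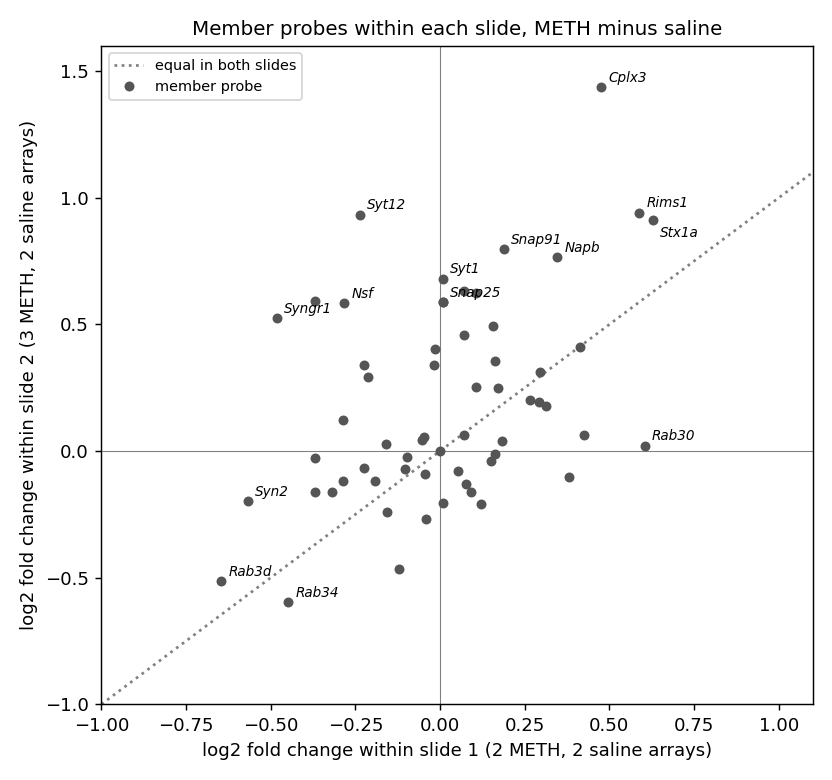
Log2 fold change of METH over saline within slide 1 (x axis, 2 METH and 2 saline arrays) and within slide 2 (y axis, 3 METH and 2 saline arrays) for the 60 member probes (points); the dotted line marks equal values. Rims1 and Stx1a are above 0 in both slides and Rab34, Rab3d and Syn2 below 0 in both, while Syt12, Syngr1 and Nsf have opposite signs.

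The count of 0 depended on METH array 2 and on the handling of the arrays. Without METH array 2, 4 members passed, all higher with METH, namely Stx1a (log2 fold change 1.00, adjusted p = 0.011), Rims1 (0.93, 0.019), Syt12 (0.73, 0.043) and Cplx3 (adjusted p = 0.0016), in a fit in which 250 of all probes, 2.5%, passed (limma). Cplx3 was above background on 0 of 4 saline arrays and entered through METH arrays alone, so no fold is given for it. With array weights, 4 members passed, where 2.51% of all probes did. They were Rims1, Stx1a and Snap91, and Cplx3, which entered through METH arrays alone. In unscaled intensities 4 passed, Rims1, Stx1a, Snap91 and Napb, where 2.25% of all probes did and the median of all probes was 0.23. Relative to that median they were 0.86, 1.27, 0.59 and 0.72. Rims1 and Stx1a were called in all 3 of these settings and in no other, of 21 alternatives for Rims1 and 20 for Stx1a. Within slide 1 their limma adjusted p was 0.846 and 0.875, and with the cortical covariate 0.427 and 0.619.

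Other genes of the vesicle cycle and of membrane fusion were read from a list of 107 genes, of which 76 were tested with 1 probe each. Of these, 0 passed (limma, smallest adjusted p 0.165, 11 at an unadjusted p under 0.05, 14.5%), with 50 above 0, 26 below and a median log2 fold change of 0.097. Over all probes 0.521% passed, 11% had an unadjusted p under 0.05 and 45.7% lay above 0. Slc18a3, the vesicular acetylcholine transporter of cholinergic interneurons, had 5.64, 6.39, 5.57, 5.90 and 5.22 on METH arrays, against 6.54, 6.99, 7.22 and 6.16 on saline arrays (log2 fold change -0.98 ± 0.25 SE, limma adjusted p = 0.165). METH array 2 reached into the saline range. Synj2, a phosphoinositide phosphatase of endocytosis, had 1.1 ± 0.32 SE (limma adjusted p = 0.206) and Slc17a6, a vesicular glutamate transporter of subcortical neurons, 0.64 ± 0.20 SE (0.236). Ppfia3, a liprin of the active zone, had 0.50 ± 0.16 SE (0.268) and did not overlap between groups. Without METH array 2, 4 passed, where 2.5% of all probes did: Synj2, Slc17a7 and Rimbp2 higher and Slc18a3 lower. Slc17a7 is also 1 of the cortical markers and was above background on 2 of 4 saline arrays.

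The 26 matched probes below the detection filter covered 23 further genes and extra probes of Rims2, Stxbp5 and Syt5. Of the 26, 18 were above background on 0 of 9 arrays and 8 on 1 to 3. Besides those named above, the genes were Cplx4, Stx11, Stx16, Stx17, Stxbp4, Stxbp5l, Stxbp6, Syngr4, Rab33b and Rab39a. The 6 members that passed on exactly 4 arrays were Cplx3, Stx3, Syt13, Unc13b, Unc13d and Vamp5. Of the 60, 45 were above background on all 9 arrays.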

How the data were processed

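Rat accumbens RNA was hybridised to Illumina beadchips. The intensities, as deposited, are BeadStudio output according to the submitters' processing notes. Values below 0 show that they were background-subtracted. The mean per array ran from 164.3 to 231.4, so the arrays were not scaled to a common mean. The authors' deposited detection p-value is low for bright probes; for the 23 arrays not used, the deposited column is a detection score that is high for bright probes. Both deposited tables held the same intensities on the 9 arrays used (largest difference 0). Intensities were normalized with neqc in limma 3.58.1 (R 4.3.3): background from the detection p, offset 16, log2 and quantile. Fold changes on this scale are understated for dim probes. Probes detected on at least 4 of 9 arrays (9987) entered lmFit and eBayes (trend on intensity), with two-sided p adjusted by Benjamini-Hochberg over all of them. The fit was tested on simulated data, but no outcome of that is given here, so it lends the results no support. Names came from the platform annotation (13793 of 22523 probes). Entrez IDs of all 86 matched probes were found in RefSeq, and 0 symbols changed.

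The members and lists were chosen with earlier results of these data known. Values are given by array for members past the threshold, the 12 with the smallest p, those without overlap, and 19 core genes whatever their values; others are summarised, and Syt12 was added after its values were seen. No build was named for the probes, so the coordinates given are those of the RefSeq promoters. Replicate numbers did not pair the arrays (correlations of deviations 0.072, 0.095, 0.080 and 0.25). Alternatives were other background corrections, scalings, filters and weights, blocks for slide or for replicate number, each slide alone, a cortical covariate and single arrays left out.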

Additional observations from a re-analysis of the deposited data

How the results depend on the processing

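The count of 0 members held under all but 3 alternatives. It was 4 in unscaled intensities and 4 with array weights. With 1 array left out in turn it ranged from 0 to 4, and the 4 came without METH array 2. The 4 with array weights and the 4 without METH array 2 each include Cplx3, which entered through METH arrays alone. The member median was 0.37 in unscaled intensities, where the median of all probes moved to 0.23; it was 0.037 to 0.15 with 1 array left out. The count over all probes, 52, was 225 in unscaled intensities, 251 with array weights, 16 within slide 2 and 84 with the cortical covariate. It ranged from 31 to 250 with 1 array left out, with 31 without saline array 2 and 33 without saline array 3. The other synaptic list had 5 calls in unscaled intensities, 3 with array weights and 0 to 4 with 1 array left out. With the replicate number as a block, without METH array 5, 81 probes passed over all and 0 members, and the member median was 0.10; 1 of 4 saline arrays correlated best with its own number. Cyclic loess, chosen after seeing the data, gave 0 members and a median of 0.11. Of 480 results for 23 named members, 464 kept their call and moved by less than the spread between replicates or kept their direction, and 11 newly passed. The other 5 moved further without passing: Snap25, Syt1 and Nsf with the cortical covariate, Nsf within slide 1, and Sv2a in unscaled intensities. The sign differed in 16 results, none past the threshold, and 16 of the 22 members other than Sv2b kept it throughout. Sv2b, fixed at 0 by quantile normalization, was at -0.16 in unscaled intensities and -0.35 with cyclic loess. Signal over background limits Stx1a, Cplx3, Unc13b, Unc13d and Syt13, which few saline arrays detected.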

Other observations

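Genes of dense-core vesicles, which carry peptides and fuse with much of the same machinery, were read from 5 genes of the granins and their relatives, all from a list of neuroendocrine markers. Scg2 had a log2 fold change of 0.29 ± 0.17 SE and Scg3 of 0.24 ± 0.14 SE with METH over saline. Chgb was at 0.17 ± 0.15, Scg5 at 0.012 ± 0.18 and Chga at -0.058 ± 0.16 SE. All 5 were above background on every array, and none passed in limma (adjusted p 0.561 to 0.987), where 0.521% of all probes did.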
